A study of Mus musculus with 9 samples.

Results

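The Oga knockout (KO) line and the wild-type (WT) line of mouse embryonic fibroblasts were compared across all probe sets of an expression array, using the arrays that carry those genotypes in their titles, which are 6 of the 9 in the series (3 KO and 3 WT). Fibroblasts were grown in DMEM from female embryos at E12.5 (days after conception). The KO embryo (line code E7) carried 0 intact copies of Oga, the WT embryo (line code E8) carried both, and the remaining 3 arrays came from a heterozygous (Het) embryo with 1 intact copy, whose levels are given beside some genes. A floxed Oga allele on a C57B1/6 background, as the design text spells it, had been recombined by crossing to mice with an MMTV-Cre transgene (B6129 strain name), a Cre driven by the mouse mammary tumour virus promoter, and heterozygous offspring were then intercrossed. Each genotype is therefore 1 line from 1 embryo, and the design text calls the 3 arrays of a line technical replicates. Every SD, SE and p below covers the spread between arrays, and genotype cannot be told apart from any other difference between these embryos or cultures.

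O-GlcNAc is a single sugar, N-acetylglucosamine, that is added to serines and threonines of nuclear and cytosolic proteins. One enzyme, the transferase OGT, adds it, and one enzyme, the hydrolase OGA, takes it off, so that the mark can turn over quickly on transcription factors, kinases and RNA polymerase. The donor sugar UDP-GlcNAc comes from the hexosamine pathway, a side branch of glucose metabolism. Embryonic fibroblast cultures are mainly mesenchymal cells that make collagen, but macrophages and cells on the way to muscle, cartilage or fat can be carried along from the embryo.

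Oga was the check on the labels. At its most abundant probe set the WT arrays read 11.89, 11.93 and 11.95 on the log2 scale and the KO arrays 6.03, 6.08 and 6.08. Het arrays all read 11.16. The KO line was thus lower by a log2 difference of -5.86 ± 0.036 (SE, n = 3 arrays a line, limma adjusted p = 1.95e-15), a 58.1-fold gap, and the KO level lay under 6.22, the level below which a probe set was treated as low. Each of the 12962 genes tested was read at its most abundant probe set. By that reading only Oga had a mean of at least 9 in one of these lines and under that low level in the other. Pdxdc1 also met these limits, at another of its probe sets (WT mean 5.91, KO mean 12.27). Fibroblast markers were abundant in both lines. All 18 were measured, and their mean log2 level was 12.78 to 12.79 in WT arrays and 12.35 to 12.40 in KO arrays. Of these markers 13 lay lower and 5 higher in KO arrays, with a median difference of -0.083. Calls were 2 falls and 0 rises (11.1%, against 3.56% over all genes). The collagen genes Col1a1 (KO minus WT -0.08) and Col1a2 (-0.05) and the intermediate filament gene Vim (0.11) were close in both lines, while Pdgfra and Lum, also in that list, fell.

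Other enzymes of O-GlcNAc turnover and of the hexosamine pathway stayed within 2-fold. Of 20 listed genes 19 were measured, 1 fell (Oga) and 0 rose, and the median difference was 0.038 on the log2 scale against -0.029 over all genes tested. Ogt read 11.29, 11.26 and 11.31 in WT and 11.00, 10.85 and 10.81 in KO arrays. At this brightest probe set the KO arrays of Ogt were all below the WT arrays, by a log2 difference of -0.40 ± 0.050. Such a lack of overlap was found for 61.8% of all genes tested. The other Ogt probe sets lay at -0.18, -0.08, -0.05 and 0.02, so this difference depends on the probe set. Eogt, which adds O-GlcNAc to secreted and membrane proteins in the endoplasmic reticulum, lay higher in KO arrays by 0.66. Enzymes that build UDP-GlcNAc were also slightly higher, Pgm3 by 0.43, Uap1 by 0.26, Gfpt1 by 0.24 and Gfpt2 by 0.10 (adjusted p = 0.167 for Gfpt2). All 6 measured salvage and breakdown genes lay lower, Renbp at -0.60 and the kinase gene Nagk at -0.44 among them, and so did Uap1l1, a relative of Uap1, at -0.67. The 4 genes of the sialic acid branch and of sugar nucleotide transport lay slightly higher, between 0.038 and 0.209.

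The KO line differed from the WT line mostly by lower levels. Calls required a limma p below 0.05 after Benjamini-Hochberg adjustment together with a 2-fold difference. Of 12962 genes 462 met both (3.56%), 334 of which fell (2.58% of genes tested) and 128 rose (0.988%). The asymmetry widened with size: past 3-fold 117 genes fell and 25 rose, past 4-fold 49 fell and 5 rose, and past 8-fold 6 fell and 0 rose. Most genes were close in both lines, since 70.0% of them differed by under 1.2-fold and the 5th and 95th percentiles of the difference were -0.66 and 0.48. Arrays of a line were so alike (r = 0.997 to 0.999 in WT, 0.998 to 0.999 in KO, and 0.989 to 0.991 between the lines) that 61.8% of all genes had KO arrays that did not overlap the WT arrays, and 53.1% passed the adjusted p threshold alone. Size, rather than p, therefore sorted the genes. With the genes cut into 5 equal classes by mean level, calls were most frequent between 7.46 and 8.85 (42 rises and 131 falls among 2592 genes) and least frequent in the class with the highest levels (21 and 32 among 2593). Differences between the 3′ and 5′ control probe sets of actin, a sign of RNA quality, were alike (0.072 ± 0.011 in WT and 0.073 ± 0.019 in KO arrays, SD).

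**Figure D1:**
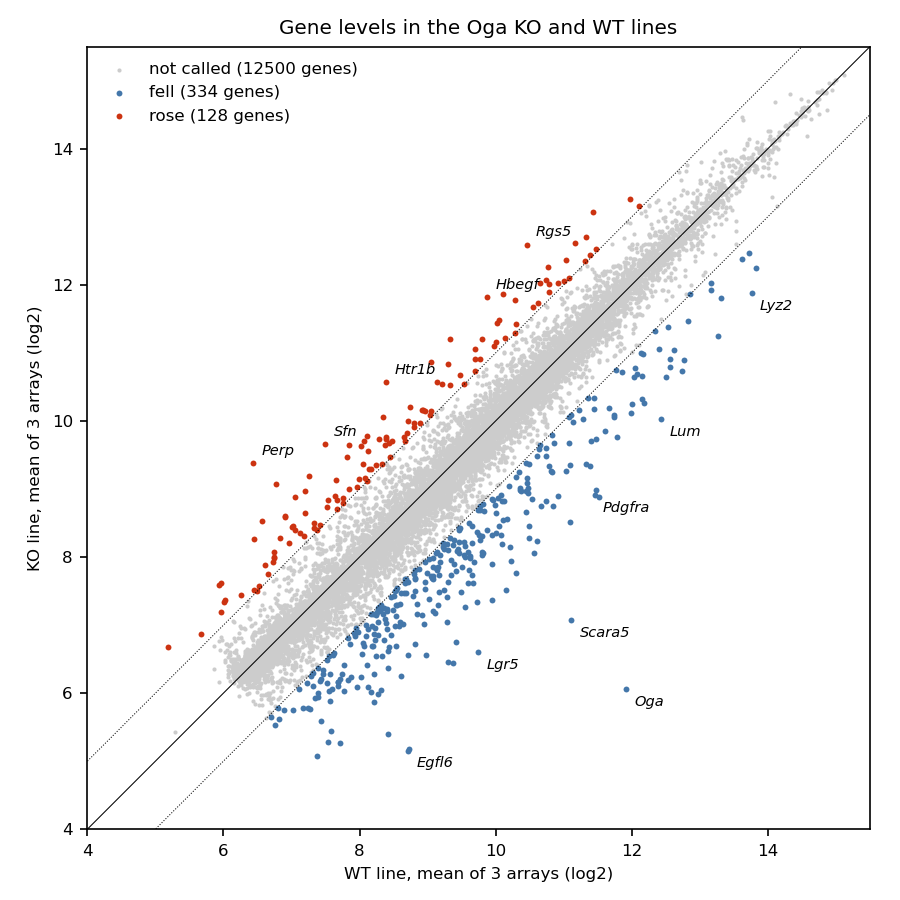
Mean log2 level of each of 12962 genes in the WT line (horizontal axis) and in the KO line (vertical axis), 3 arrays each. Blue points are the 334 genes that fell, red points the 128 that rose, grey points the rest; the solid line marks equal levels and the dotted lines 2-fold. Oga lies farthest from the diagonal, and more points lie below the band than above it.

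After Oga, the largest fall was in Scara5, a scavenger receptor that takes up ferritin. Scara5 read 11.09, 11.12 and 11.14 in WT arrays and 7.20, 7.02 and 6.98 in KO arrays, a log2 difference of -4.05 ± 0.055 (limma adjusted p = 4.83e-12). The lines were far apart and the Het mean of Scara5 was 10.06. Lgr5, a receptor for R-spondins that marks stem cells in several epithelia, read 9.76, 9.67 and 9.81 in WT and 6.99, 6.20 and 6.62 in KO arrays (-3.14 ± 0.15). Its KO arrays varied more than its WT arrays but lay well below them. Egfl6 (-3.56), Ifi202b (-3.55) and the water channel gene Aqp4 (-3.03) fell to KO means below the low level, so the sizes of those falls rest on values near background. F13a1 (-2.94), the cartilage collagen gene Col9a1 (-2.84, though -0.88 at its other probe set), Lgi2 (-2.67), Ndufa4l2 (-2.64) and the macrophage gene Cd68 (-2.63) followed.

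Further down the same ranking stood genes of other kinds. Tmem87a, which encodes a membrane protein of the Golgi, read 9.99, 9.99 and 9.88 in WT and 7.38, 7.31 and 7.40 in KO arrays (-2.59 ± 0.072), and its Het mean of 7.45 was almost at the KO level. Ms4a7, a macrophage gene, read 11.09, 11.11 and 11.09 in WT and 8.57, 8.56 and 8.42 in KO arrays (-2.58 ± 0.048). Pdgfra, the receptor for PDGF-A that defines many mesenchymal cells, read 11.47, 11.39 and 11.51 in WT and 9.03, 8.99 and 8.72 in KO arrays (-2.55 ± 0.073), with its other probe sets at -1.93 and -0.98. None of these KO arrays overlapped the WT arrays, which held for every called gene and for 61.8% of all genes tested. Gdf10, a BMP-related ligand, completed the 15 largest falls (-2.53 ± 0.052, Het mean 9.25).

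The largest rise was in Perp, a p53-induced gene whose tetraspan protein sits in desmosomes. Perp read 6.51, 6.18 and 6.63 in WT and 9.44, 9.41 and 9.29 in KO arrays, a log2 difference of 2.94 ± 0.097 (7.67-fold), and its Het mean of 6.46 was at the WT level. Hbegf, which encodes a membrane-anchored ligand of the EGF receptor, read 9.93, 9.86 and 9.83 in WT and 11.86, 11.79 and 11.83 in KO arrays (1.95 ± 0.041). Rgs5, a regulator of G protein signalling that marks pericytes, read 10.52, 10.41 and 10.46 in WT and 12.61, 12.63 and 12.55 in KO arrays (2.13 ± 0.046). In all of them the arrays of the lines stood apart without overlap, as in every called gene and in 61.8% of all genes tested. Htr1b rose by 2.18 at one probe set and lay at 0.22 at the other, so its size depends on the probe set, while Sfn (2.17), Ccl20 (1.97), Klhl30 (1.93), Ptgs2 (1.88), Tnni1 (1.83) and Ldb3 (1.82) made up the rest of the 10 largest rises.

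The next 5 rises were between 3.30-fold and 3.52-fold. Parm1, a mucin-like membrane protein gene, read 9.06, 9.04 and 9.08 in WT and 10.91, 10.87 and 10.84 in KO arrays (1.82 ± 0.040), with its other probe set at 1.88 and a Het mean of 9.11. Ankrd1, a muscle ankyrin repeat gene that is a target of YAP signalling, read 10.06, 10.16 and 10.11 in WT and 11.88, 11.83 and 11.90 in KO arrays (1.76 ± 0.050; 1.89 at its other probe set; Het mean 10.07). Both were thus at the WT level in the Het line. Serpinb6b, a serine protease inhibitor gene (1.80), the sodium channel gene Scn7a (1.76) and the actin-bundling gene Aif1l (1.72) were the others. Other probe sets lay at 0.91 and 1.79 for Scn7a and at 0.58 and 2.02 for Aif1l.

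**Figure D2:**
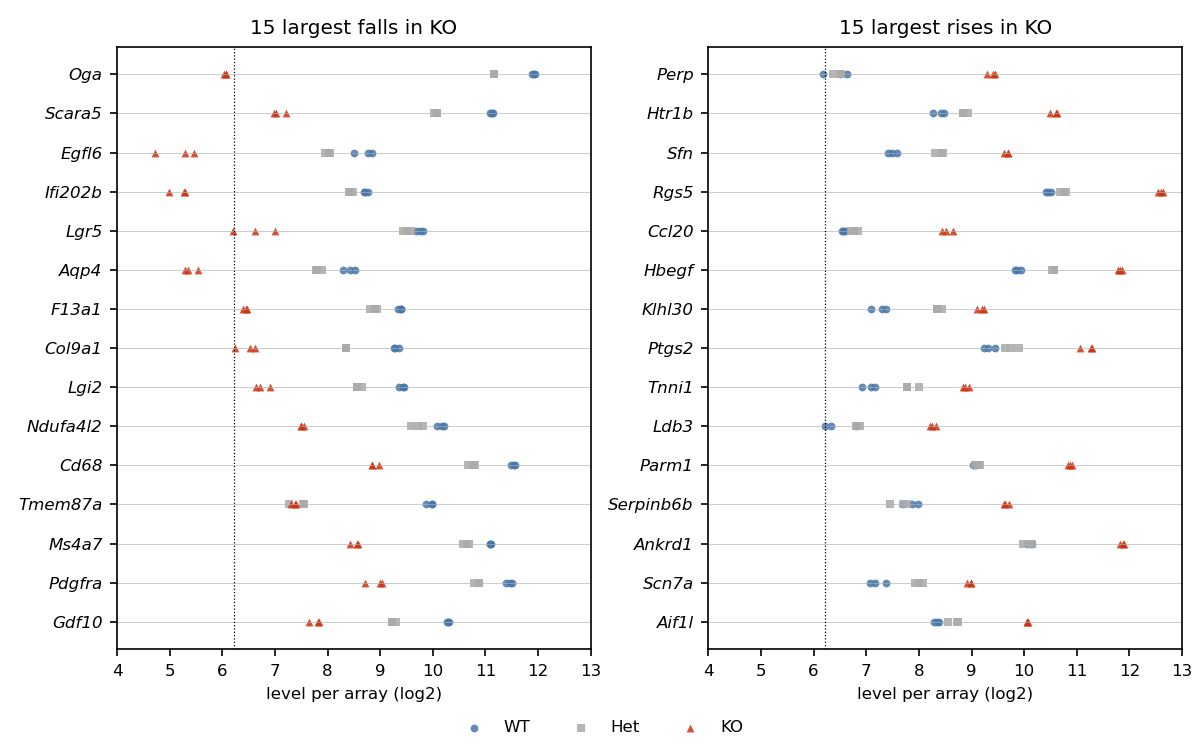
Level per array (log2, horizontal axis) of the 15 genes that fell most and the 15 that rose most in the KO line. Circles are WT, squares Het and triangles KO arrays, and the dotted line is the low level of 6.22. KO triangles do not overlap WT circles in any of the 30 genes, nor do the arrays of any called gene. Such a lack of overlap was found for 61.8% of all genes. Tmem87a has its Het squares at the KO level, and Perp, Parm1 and Ankrd1 have them at the WT level. Serpinb6b has them close to the WT level (Het mean 7.64, WT mean 7.85).

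Macrophage genes fell almost as a block. Of 46 markers of macrophages and other blood cells 36 passed the filter on low values. Of these 32 fell and 0 rose (88.9% called, against 3.56% over all genes), and the median difference was -1.71. The mannose receptor gene Mrc1 read 11.49, 11.44 and 11.52 in WT and 9.06, 8.98 and 8.92 in KO arrays (-2.50 ± 0.043). Clec4d, a C-type lectin receptor gene, fell by 2.42, Gpnmb fell by 2.37 and the scavenger receptor gene Msr1 fell by 2.06, and the exception nearest to 2-fold was Aif1 (-0.85). Averaged over the list, WT arrays lay at 10.44 to 10.46 on the log2 scale, Het arrays at 10.05 to 10.12 and KO arrays at 8.80 to 8.83, and the list summed on the linear scale was 95080 to 98202 in WT and 29191 to 29909 in KO arrays. KO cultures were lower but not empty of these transcripts: in the KO line 1 of the 36 had a mean under the low level. The haemoglobin genes Hba-a1, Hbb-bh1 and Hbb-y did not pass the filter. In RNA from whole cultures, fewer macrophages and less of these RNAs per macrophage cannot be told apart.

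Secreted immune genes split into losses and a few gains. Among 63 listed chemokines, cytokines and their receptors 50 were measured. Of these 10 fell and 2 rose (24% called, against 3.56% over all genes), with a median of -0.29. The monocyte chemokine gene Ccl12 (-2.50), Ccl3 (-2.15), Ccl9 (-2.06), Cxcl15 (-1.78), Cxcl5 (-1.58) and Il33, an alarmin (-1.53), fell. Ccl20 (1.97) and Lif, an IL-6 family cytokine (1.68), rose; Lif read 8.03, 8.16 and 8.12 in WT and 9.79, 9.71 and 9.84 in KO arrays. Complement receptor genes followed the losses, C3ar1 at -2.09 and C5ar1 at -1.44, whereas the protease inhibitor gene Tfpi2 rose by 1.32 from a WT mean under the low level. Several of these genes are expressed by macrophages, whose marker median was -1.71, and the part of macrophages in them was not tested.

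Interferon-stimulated genes fell with no called rise. Of 69 listed, 51 were measured and 18 fell (35.3% called, against 3.56% over all genes). The median was -0.79, and 48 of the 51 lay below WT. The macrophage list moved beside them, and its part in these falls was not tested. Rtp4, a chaperone gene induced by interferon, read 9.95, 9.91 and 9.99 in WT and 7.95, 7.87 and 7.88 in KO arrays (-2.05 ± 0.043). Ifi202b (-3.55), Ifit1 (-2.39), the ISG15 protease gene Usp18 (-2.01), Oasl2 (-1.93) and the tetherin gene Bst2 (-1.77) were the other large falls. Irgm1, a GTPase gene of the same list, lay the other way at 0.92, short of 2-fold. Antigen presentation genes had 1 called member of 17 measured (5.9%, against 3.56% over all genes), the immunoproteasome gene Psmb8 (-1.44). Calls included 0 of the 11 class I and loading genes and 0 of the 2 class II genes.

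Promoters of interferon-stimulated genes were searched for a known element. Interferon acts through a complex of STAT and IRF9 proteins that binds the interferon-stimulated response element, whose core was searched as GAAANNGAAA on both strands in the 300 bases (250 before and 50 after each start site) that RefSeq gives on build GRCm38.p6. Of 10439 measured genes with a promoter in that table, 357 (3.42%) had a match, against 22 of 257 genes that fell (8.56%), 5 of 97 that rose (5.15%) and 20 of 39 in the interferon list (51.3%); over all 27025 genes in the table the share was 3.99%. A match describes letters and not binding. Stretches of 60 bases from promoters of called interferon genes are given 5′ to 3′ on the strand of the gene, with the matches in capitals, to show the paired blocks.
Ifit1, chr19:34640769-34640828, plus strand: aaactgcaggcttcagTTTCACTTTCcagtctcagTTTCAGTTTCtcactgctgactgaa
Bst2, chr8:71537565-71537624, minus strand: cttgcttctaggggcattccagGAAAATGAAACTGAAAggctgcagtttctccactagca
Irgm2, chr11:58214888-58214947, plus strand: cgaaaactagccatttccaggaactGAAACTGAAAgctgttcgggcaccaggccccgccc
Gbp2, chr3:142620579-142620638, plus strand: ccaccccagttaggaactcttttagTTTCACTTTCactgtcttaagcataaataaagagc
Ifit1 and Bst2 have 2 matches each in these stretches, overlapping in Bst2, and the GTPase genes Irgm2 and Gbp2 have 1 each. Irgm2 fell by 1.33 and Gbp2 fell by 1.12.

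Muscle genes made up the largest block of rises among the 41 lists. Of 46 skeletal and cardiac muscle genes 28 were measured. Of these 12 rose and 0 fell (42.9% called, against 3.56% over all genes), with a median of 0.73. Another 17 listed genes, among them Myod1, Myf5 and Ttn, lay below the filter. Actc1, the cardiac actin gene, read 6.84, 6.87 and 7.02 in WT and 8.61, 8.63 and 8.58 in KO arrays (1.69 ± 0.054), with a Het mean of 8.25. Acta1, the skeletal actin gene, read 7.99 to 8.08 in WT and 9.58, 9.66 and 9.65 in KO arrays (1.61 ± 0.042). Thin filament genes rose along with these actins (Tnni1, 1.83; Tnnt2, 1.45), as did the Z disc gene Ldb3 (1.82, and 0.62 at its other probe set). The list mean was 7.25 to 7.31 in WT, 7.67 to 7.74 in Het and 8.02 to 8.07 in KO arrays, and the myogenic factor gene Myog lay at 0.99, just short of 2-fold.

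Smooth muscle and pericyte genes showed 5 rises and 1 fall among 24 measured (25% called, against 3.56% over all genes, median 0.48). Cnn1, the calponin gene, read 11.40, 11.45 and 11.42 in WT and 13.06, 13.06 and 13.11 in KO arrays (1.65 ± 0.039; Het mean 12.23). Myocd, which encodes the SRF coactivator myocardin, rose by 1.65 from WT arrays of 5.78, 5.90 and 6.20, all under the low level, and the adhesion gene Mcam rose by 1.35. The peptidase gene Anpep fell by 1.36. Acta2, the smooth muscle actin gene, lay at 0.24 at its brightest probe set, which read 14.50 in each WT array, and at 1.14 and 1.5 at its other probe sets. Tagln (0.47) and Srf itself (0.49) were within 2-fold.

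Many muscle genes are controlled by SRF through the CArG box, a palindromic element with an A and T rich core. Of the same 10439 measured genes 166 (1.59%) had a CArG box in the promoter window, against 7 of 97 genes that rose (7.22%), 6 of 257 that fell (2.33%) and 3 of 23 in the skeletal and cardiac muscle list. Over all genes in the RefSeq table the share was 1.81%. The 3 muscle genes are printed with the box in capitals, since they are also among the genes that rose.
Ldb3, chr14:34588682-34588741, minus strand: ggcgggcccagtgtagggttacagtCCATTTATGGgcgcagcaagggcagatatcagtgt
Actc1, chr2:114052888-114052947, minus strand: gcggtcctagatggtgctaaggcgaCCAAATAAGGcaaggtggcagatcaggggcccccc
Acta1, chr8:123894814-123894873, minus strand: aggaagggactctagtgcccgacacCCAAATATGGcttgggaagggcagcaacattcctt
For the AP-1 core TGANTCA, searched the same way, the shares were close for genes that rose (11.3%) and fell (10.9%). They stand beside 6.37% over all measured genes and 8.97% over all genes in the table. By list the AP-1 core was in 9 of 39 interferon genes (23.1%), 5 of 27 macrophage and blood genes (18.5%) and 3 of 23 skeletal and cardiac muscle genes (13%). In the smooth muscle and pericyte list it was in 3 of 20 (15%).

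**Figure D3:**
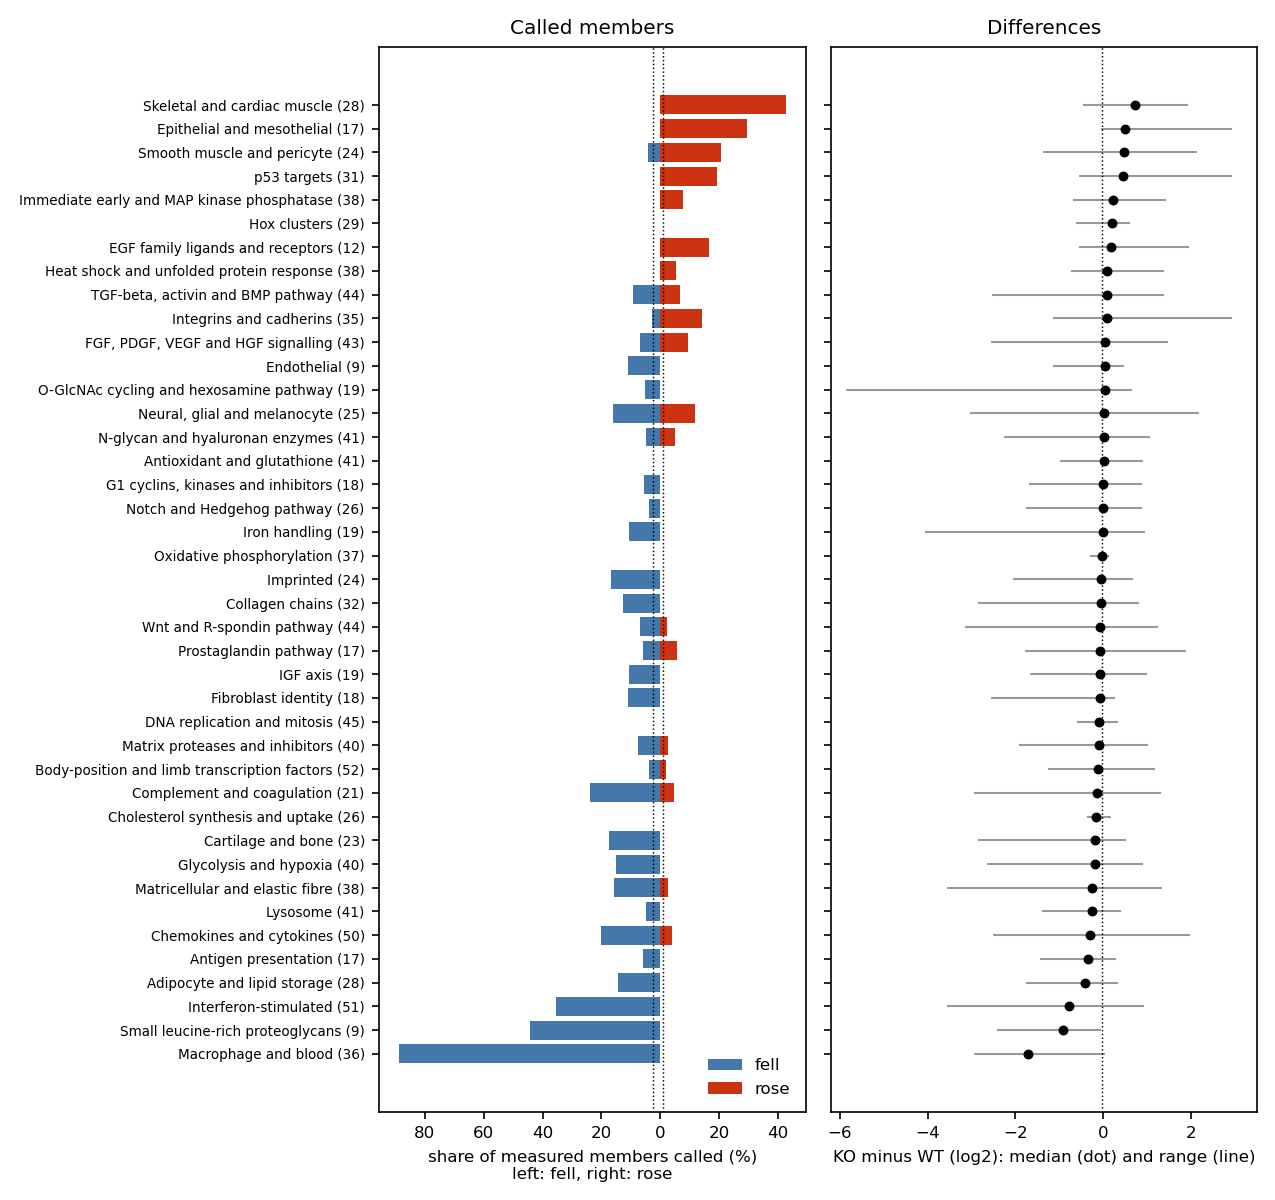
For each of 41 gene lists (number of measured members in brackets), the left panel shows the percentage of measured members that fell (blue, to the left) and rose (red, to the right), with dotted lines at the share over all genes, 2.58% and 0.988%. The right panel shows the median KO minus WT difference (dot) and the range over members (line) on the log2 scale, with a dotted line at the median of all genes; the macrophage list lies lowest (-1.71) and skeletal and cardiac muscle highest (0.73).

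Growth factor genes moved in both directions. Of 6 measured ligand genes of the EGF family 2 rose and 0 fell, Hbegf (1.95) and Ereg, the epiregulin gene (1.07); the other ligands lay between -0.05 (Nrg2) and 0.81 (Nrg1). None of 3 receptor and 3 inhibitor genes was called, and the receptor gene Egfr lay at -0.56. Of all 12 measured genes in the EGF list 16.7% were called, against 3.56% over all genes. Ereg was at 0.97 without KO replicate 1, under 2-fold. The list of FGF, PDGF, VEGF and HGF signalling also holds neurotrophin and angiopoietin genes. Of its 43 measured genes 4 rose and 3 fell (16.3% called, against 3.56% over all genes). Bdnf, a neurotrophin gene, read 8.78, 8.74 and 8.73 in WT and 10.24, 10.21 and 10.18 in KO arrays (1.46 ± 0.044), and Fgf9 (1.43), Pdgfd (1.23) and the neurotrophin receptor gene Ngfr (1.06; 0.85 as the mean of its probe sets) also rose. Pdgfra (-2.55), the angiopoietin gene Angpt1 (-1.55) and Fgf18 (-1.13) fell. The ligand gene Pdgfa (0.78) and the sister receptor gene Pdgfrb (-0.15) were within 2-fold.

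The IGF axis had 2 falls and 0 rises among 19 measured genes (10.5% called, against 3.56% over all genes). Igf1 read 12.15, 12.11 and 12.18 in WT and 11.04, 11.01 and 10.96 in KO arrays (-1.14 ± 0.038), with other probe sets between -1.18 and -0.87. Igfbp3, which encodes the main carrier of IGFs in serum, read 12.62, 12.59 and 12.497 in WT and 10.91, 10.91 and 10.90 in KO arrays (-1.66 ± 0.045; Het mean 11.81). Both lay clear of the WT arrays, as did every called gene. Igfbp4 was just short of 2-fold at its brightest probe set (-0.98).

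In the Wnt and R-spondin pathway the falls were in a receptor and in antagonists. Of 44 measured genes 3 fell and 1 rose (9.1% called, against 3.56% over all genes). Lgr5 (-3.14), the secreted Wnt antagonist gene Sfrp2 (-1.49) and Dkk2 (-1.45) fell, and the ligand gene Wnt9a (1.24) rose. Sfrp2 read 9.39, 9.31 and 9.45 in WT and 7.98, 7.87 and 7.83 in KO arrays, with a Het mean of 7.89 that equals the KO level. Axin2, a standard target of the pathway, overlapped between the lines (-0.13, adjusted p = 0.110).

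TGF-beta, activin and BMP genes had 3 rises and 4 falls among 44 measured (15.9% called, against 3.56% over all genes). The activin subunit gene Inhba read 11.29, 11.37 and 11.32 in WT and 12.71, 12.66 and 12.76 in KO arrays (1.38 ± 0.040). The activin antagonist gene Fstl3 (1.2) and the latent TGF-beta binding protein gene Ltbp2 (1.05) rose as well. Tgfbi, a matrix gene induced by TGF-beta, fell by 2.02, the co-receptor gene Tgfbr3 fell by 2.02 (-0.46 at its other probe set), Gdf10 fell by 2.53 and Id2, a BMP target, fell by 1.13, or 0.99 as the mean of its probe sets. Genes of 1 pathway, ligand, antagonist and target, thus differed in sign.

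Matrix genes fell selectively. Small leucine-rich proteoglycans bind collagen fibrils and set their spacing. Of 16 listed 9 were measured, and 4 fell and 0 rose (44.4% called, against 3.56% over all genes). All 9 lay below WT (median -0.93). Lum, the lumican gene, read 12.44 in each WT array and 10.06, 10.09 and 9.93 in KO arrays (-2.42 ± 0.045; Het mean 11.26). Fmod, the fibromodulin gene, read 12.16, 12.18 and 12.12 in WT and 10.35, 10.29 and 10.33 in KO arrays (-1.83 ± 0.040), and its other 5 probe sets lay between -1.80 and -1.52. Podn (-1.15) and Aspn (-1.03; -0.98 without KO replicate 3 and -0.73 as the mean of its probe sets) fell too, while Dcn lay at -0.93 and Bgn at -0.04.

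Among collagen chains 4 of 32 measured fell and 0 rose, and the median of -0.05 was near that of all genes. Those that fell were the fibril-associated Col9a1 (-2.84) and Col9a3 (-1.87), the network collagen gene Col8a2 (-1.88) and Col6a3 (-1.13). Col8a2 read 12.81, 12.74 and 12.76 in WT and 10.91, 10.90 and 10.87 in KO arrays. Of 38 matricellular and elastic fibre genes 6 fell and 1 rose (18.4% called). They included Egfl6 (-3.56), the cartilage matrix gene Comp (-1.51), Ccn3 (-1.36) and, rising, the fibulin gene Efemp1 (1.34). In the protease list 10% of 40 measured genes were called. Adam8 fell by 1.92 and Mmp3 fell by 1.23. Mmp9 rose by 1.03 (0.95 without WT replicate 1, 0.998 as the mean of its probe sets). Of the integrins and cadherins with other adhesion genes 5 of 35 rose and 1 fell (17.1% called). Perp (2.94), the integrin gene Itga4 (1.27), Cdh10 (1.09) and Cd44 (1.06) were among the rises, and Itgbl1 (-1.14) fell. As the mean of their probe sets Cdh10 (0.975) and Cd44 (0.997) were just short of 2-fold.

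Genes induced by p53 rose in 6 of 31 measured cases (19.4% called, against 3.56% over all genes), with 0 falls and a median of 0.45. Besides Perp they were Pmaip1, which encodes the pro-apoptotic protein NOXA (1.5), Rprm (1.45), Btg2 (1.34), the death receptor gene Eda2r (1.18) and Mdm2, the ubiquitin ligase gene of p53 (1.04; 0.996 without KO replicate 1, 0.994 with quantile normalization). Cdkn1a, which encodes the cell cycle inhibitor p21, read 12.79, 12.80 and 12.79 in WT and 13.66, 13.70 and 13.69 in KO arrays, a difference of 0.89 that is short of 2-fold. Cell cycle genes moved less. Of 18 G1 cyclins, kinases and inhibitors 1 fell, the imprinted inhibitor gene Cdkn1c (-1.69), and of 45 DNA replication and mitosis genes 0 were called, the farthest being Pola1 (-0.60).

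Of 17 measured prostaglandin pathway genes 1 rose and 1 fell (11.8% called, against 3.56% over all genes). Ptgs2, the inducible cyclooxygenase gene, read 9.45, 9.23 and 9.30 in WT and 11.27, 11.29 and 11.07 in KO arrays (1.88 ± 0.082), while the prostaglandin D synthase gene Hpgds fell by 1.78 and Ptges lay at -0.26. Of 38 immediate early and MAP kinase phosphatase genes 3 rose and 0 fell (7.9%): the phosphatase genes Dusp1 (1.44) and Dusp4 (1.30), which switch off MAP kinases, and Egr2 (1.12). Fos (-0.19) and Egr1 (-0.0084) were not called. Of 38 heat shock and unfolded protein genes Hspa1b (1.37) and Cryab (1.10) rose and 0 fell (5.3%).

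Measured epithelial markers lay higher in KO arrays in 16 of 17 cases, with a median of 0.50, while neural markers went both ways. Of 38 epithelial and mesothelial markers 21 lay below the filter, Cdh1 and Trp63 among them. Of the 17 measured 5 rose (29.4% called, against 3.56% over all genes). They were Perp (also in the p53 list), Sfn, Krt18 (1.68), Krt19 (1.26) and the plakophilin gene Pkp2 (1.10, or 0.991 as the mean of its probe sets). Krt18 read 6.92, 6.96 and 6.86 in WT and 8.55, 8.61 and 8.61 in KO arrays, whereas Krt8, its usual partner, overlapped between the lines (0.09), and Epcam lay at 0.24. Of 25 measured neural, glial and melanocyte genes 3 rose and 4 fell (28% called). Aqp4 (-3.03), Lgi2 (-2.67), the glial filament gene Gfap (-1.88) and Olig1 (-1.46) fell, and Htr1b (2.18), Uchl1 (1.33) and the intermediate filament gene Nes (1.24) rose.

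Among genes of body position, limb and position transcription factors had some calls and Hox genes had none. Of 52 measured limb and position transcription factors 2 fell and 1 rose (5.8% called, against 3.56% over all genes). Irx1 (-1.26) and Irx3 (-1.06) fell and Gata3 (1.18) rose, with Irx5 at -0.96. Irx1 read 9.11, 9.25 and 9.19 in WT and 7.94, 7.88 and 7.95 in KO arrays. Of 29 measured Hox genes 0 were called, with Hoxd8 (-0.62) and Hoxc5 (0.60) farthest apart. Imprinted genes fell in 4 of 24 cases and rose in 0 (16.7% called). Gatm (-2.05) and Mest (-1.254) were among them. Dlk1, another of these falls, depended on the probe set. It lay at -0.96 as the mean of its probe sets and at -0.16 without probe sets that can detect several transcripts.

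Metabolic lists ranged from shares of calls above the 3.56% over all genes to no calls. Iron handling had 2 falls and 0 rises among 19 measured genes (10.5%), Scara5 and the iron exporter gene Slc40a1 (-1.47), which macrophages also express. Of 40 glycolysis and hypoxia genes 6 fell and 0 rose (15%, median -0.20), including Ndufa4l2 (-2.64), Aldoc (-1.62) and Bnip3 (-1.17), and of 28 adipocyte and lipid genes 4 fell and 0 rose (14.3%, median -0.42), including Apoe (-1.51) and the fatty acid transporter gene Cd36 (-1.65), both of which macrophages make as well. In the lysosome list 2 of 41 fell (4.9%), Ctss (-1.39), also a macrophage marker, and Naglu (-1.13), the median being -0.25. Among 41 N-glycan and hyaluronan genes 2 fell and 2 rose (9.8%). The polysialyltransferase gene St8sia4 fell by 2.26 to a KO mean under the low level and the branching enzyme gene Mgat4a fell by 1.10, while the hyaluronidase gene Cemip (1.06) and the hyaluronan receptor gene Cd44 rose; read as the mean of their probe sets, Mgat4a (-0.57) and Cemip (0.84) were short of 2-fold. Of 37 oxidative phosphorylation genes, 26 cholesterol genes and 41 antioxidant genes 0 were called, the metallothionein genes Mt1 (-0.99) and Mt2 (-0.94) lying closest to 2-fold. Without KO replicate 3 both passed it (Mt1 -1.08, Mt2 -1.02), and Mt1 also did with quantile normalization (-1.03) and without WT replicate 1 (-1.0005).

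For some genes the answer depended on the probe set. When all 45037 probe sets were fitted separately, 838 were called (1.86%), of which 547 were lower (1.21%) and 291 higher (0.646%), and 75 genes that were not called at their most abundant probe set had another called probe set. The genes in this paragraph were chosen after their values were seen. Pdxdc1, a decarboxylase-domain gene, held the largest difference of any probe set on the array: probe set 1419327_at averaged 5.91 ± 0.61 over WT and 12.27 ± 0.037 over KO arrays (SD, n = 3; KO minus WT 6.36), with a Het mean of 11.37, while 1452705_at of the same gene read 11.51 in WT and 7.50 in KO arrays (-4.01) and its remaining probe sets lay at -1.52 and -1.255. It was the 1 gene with probe sets called in both directions. Scd2, which encodes a fatty acid desaturase, gave -3.46 at 1415824_at (13.01 ± 0.022 in WT, 11.34 in Het, 9.56 ± 0.32 in KO arrays) and -0.06 and -0.01 at its other probe sets. Fcgr2b, an inhibitory Fc receptor gene, lay at -1.12 at its brightest probe set, at -3.33, -3.25 and -2.73 at 3 others and at -0.15 at a dim one, and 4 of 6 probe sets of Igfbp4 passed 2-fold (-1.69 to -1.36). Desmoplakin, Dsp, was removed by the filter on low values, yet 2 of its 3 probe sets read 2.81 and 2.27 higher in KO arrays, from WT means of 4.62 and 4.42 to KO means of 7.43 and 6.69.

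**Figure D4:**
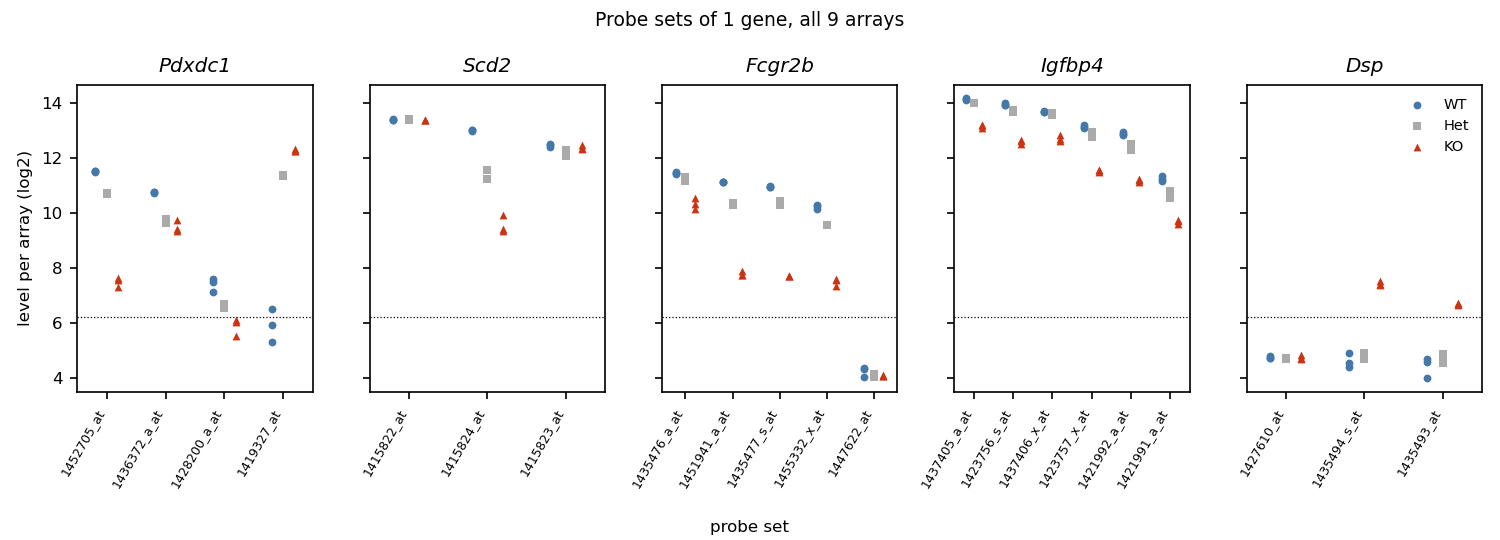
Log2 level per array (vertical axis) at every probe set (horizontal axis) of 5 genes; circles are WT, squares Het and triangles KO arrays, and the dotted line is the low level of 6.22. Pdxdc1 has one probe set far higher and others lower in KO arrays, Scd2 differs at 1 of 3 probe sets, and Dsp is higher in KO arrays at 2 of 3.

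Genes around Oga were examined in their order along chromosome 19, from the RefSeq gene table of the same build. Of the 180 measured neighbours (100 on one side and 80, up to the end of the chromosome, on the other) 1 rose and 7 fell, or 4.44%, against 3.54% of all other genes tested, and of the nearest 40 genes 0 were called at their most abundant probe set. The nearest called genes were Pik3ap1 (-2.16; -0.30 at its other probe set), Blnk (-1.53), Shtn1 (-1.22, KO mean below the low level), Hhex (-1.18) and Ankrd1 (1.76), at 54, 56, 66, 75 and 86 genes from Oga. Single probe sets differed closer in. Scd2 lies 15 genes from Oga on one side and Mfsd13a, a transporter-like gene, 14 genes away on the other, where 1438561_x_at averaged 7.70 over WT and 5.61 over KO arrays (-2.09; Het mean 7.57) and its other probe sets lay at -0.36 and -0.03. Of 16 uncalled genes with several probe sets within 20 genes of Oga these 2 had another called probe set, against 71 of 5736 (1.24%) among genes outside the 180 neighbours. Within 100 genes of Oga the count was 4 of 90 (4.44%), and it adds Acta2 and Gsto1, which rose at those probe sets. Both counts were made after the values of Scd2 were seen, so they describe these genes and test nothing.

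**Figure D5:**
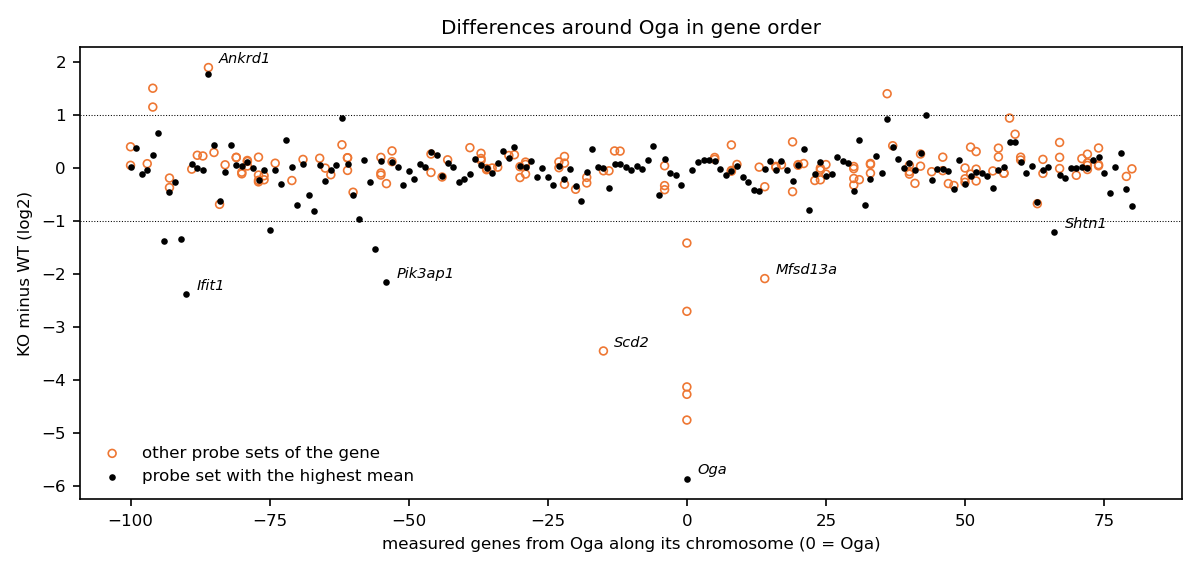
KO minus WT difference (log2, vertical axis) of the measured genes on either side of Oga in gene order (horizontal axis, 0 is Oga). Filled points are the probe set with the highest mean of each gene and open circles its other probe sets; dotted lines mark 2-fold. Points within 20 genes of Oga lie inside the 2-fold band except the probe sets of Oga itself and 1 each of Scd2 and Mfsd13a.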

How the data were processed

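The authors deposited log2 values for 45101 probe sets on 9 arrays; their range set the log base. Per the submitters' processing notes, GCOS and Partek were used; the sources used here do not give background correction, normalization or summarization. As array medians lay between 6.87 and 6.95, the values were not normalized again. Control probe sets (64) were left out, 34945 carried 1 symbol, and those with several (932) or none (9160) were not named. The lowest 40% of probe sets by mean over all arrays, below 6.22, were left out, and each gene was read at its brightest remaining probe set (12962 genes of 18193 named). Lines were compared with limma 3.58.1 in R 4.3.3 (lmFit, eBayes) in a model of 3 lines and 9 arrays, tested on simulated data. The rule for named genes took Ogt with Oga, the 15 largest rises and falls, up to 6 called members of each list (or the 2 farthest members without a call), other members as reference points, and the 5 called genes nearest Oga. Members and lists were chosen with earlier results of these data known. Lists have no set test and are described by counts and medians. They can share members, as with Perp and Cd44, so counts of different lists are not separate genes throughout. Sequences are from RefSeq (GRCm38.p6). Expression arrays give no read depth; the number of arrays limits precision. Figures used matplotlib 3.10.9.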

Additional observations from a re-analysis of the deposited data

How the results depend on the processing

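Of the 462 calls, 431 were kept with quantile normalization, 448 with median centring, 401 with the mean of probe sets, 393 without probe sets that can detect several transcripts and all 462 without a filter on low values, which added 22. The fold minimum moved counts most: 1241 genes (451 rises, 790 falls) at 1.5-fold and 142 (25 and 117) at 3-fold, and 21 or 3 called neighbours of Oga in place of 8. Every probe set on its own gave 838 calls (291 and 547), and leaving out 5 immune gene lists left 125 rises and 269 falls, both alternatives chosen after seeing the data. The array numbers did not pair the lines (correlations of deviations 0.21, -0.02 and 0.0056), and a replicate block changed none of the 462 calls, nor did fitting KO and WT arrays alone or a trended and robust variance. Without 1 array the calls numbered 456 to 464 (124 to 137 rises, 326 to 335 falls), 8 to 9 lay near Oga, and Oga lay at -5.88 to -5.84. Of 148 called genes followed over all settings 10 then fell short of 2-fold, named here as Ereg, Matn4, Mdm2, Zfp423, Aspn, Sox9, Emilin2, Mmp9, L1cam and Slc16a3. The mean of probe sets took 15 below 2-fold and quantile normalization 6. Of these 148 genes 0 changed sign in any setting. Sign changes of followed genes without a call were not counted. Each line is 1 embryo, which no setting can change.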

Other observations

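Other gene families were read off from symbol stems, 71 families with at least 15 measured genes each, of which 43 had no called member. Collagen (4 of 32) and tetraspanin genes (2 of 16, Tspan2 higher and Tspan11 lower) had the largest share of calls, and dual-specificity phosphatases (Dusp, 2 of 20) and keratins (2 of 21) were also above the share over all genes. Of 244 solute carriers 7 fell and 1 rose, and of 164 genes named Tmem 4 fell. These shares stand beside 3.56% over all genes.

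Calls by chromosome ranged from 2.04% of genes on chromosome 17 to 6.24% on chromosome 1 (16 rises and 30 falls among 737 genes), with 4.58% on chromosome 19, Oga included. Of the 5231 genes removed by the filter on low values, 30 had a called probe set. Among them were Phex, an endopeptidase gene of bone (-2.59), the scavenger receptor gene Olr1 (2.26), the lens connexin gene Gja3 (2.07) and the cytokine gene Tslp (1.83). These genes were chosen after their values were seen and had a low level in one line.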
